A study of Mus musculus with 4 samples.

Results

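Capped RNA starts that carry no gene name and face away from a nearby gene start were examined in 4 libraries of mouse skin. The members are clusters of tag starts with no gene name and a mean above 0 and under 5 CPM (tags scaled to a common library total), lying upstream of a named cluster on the opposite strand with 0 to 1000 bp between the edges. Of 67319 distinct clusters 20326 had no gene name, 18802 of those had a level in this range, and 2349 met the whole rule. Each was paired with its nearest named cluster in that arrangement, called its partner; the pairs held 2079 partner clusters of 1848 genes. The members were thus chosen by their measured mean level, together with position, strand and the lack of a name, and these are given as descriptions without a test.

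The method was cap analysis of gene expression (CAGE), which sequences short tags from the capped 5' end of RNA, so that each tag marks a start and long RNAs give no more tags than short ones. All 4 libraries came from lesional facial skin of C57BL/6 mice 28 days after birth, with the genotype Nectin-cre(+);Ikk2FL/FL;Postn-/-. Ikk2, the kinase of the IκB kinase complex encoded by Ikbkb, is floxed and deleted where the Cre is active, which gives the facial dermatitis model FADS, and every library also lacks Postn, the gene of the matrix protein periostin. With 1 group and no control group, only differences between clusters and between single libraries can be given. The cells in which the Cre is active are not stated in the labels, nor is the number of animals, and a p-value here speaks of the spread between 4 libraries, which may be technical. The sample codes of libraries 1 and 2 share 1 part, as do those of libraries 3 and 4, with no statement of what that part stands for.

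Many mammalian promoters start transcription in both directions from the same nucleosome-free stretch. Towards the gene, elongation yields the mRNA. Away from it, the RNA, called an upstream antisense RNA or PROMPT, usually meets early polyadenylation signals and few U1 snRNP binding sites, ends early, and is degraded by the nuclear exosome, which adaptor complexes and the cap-binding protein ARS2 bring to it. Such RNAs are therefore scarce in total RNA, but carry a cap and can give CAGE tags.

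The promoters of 6 pairs show what the arrangement looks like in sequence: a ribosomal protein gene (Rpl13), an immediate early transcription factor gene (Junb), a mitochondrial ribosomal protein gene (Mrpl52), the gene of ARS2 itself (Srrt), and 2 hair shaft genes whose antisense clusters are described with the differences between libraries (Krt34 and Krtap4-2). Each line gives the 250 bases before the RefSeq start on GRCm38.p6, 5' to 3' on the strand of the gene, and the capitals mark the bases covered by the antisense cluster, whose RNA runs towards the left on the other strand. The stretches are chr8:123102100-123102349, plus strand for Rpl13, chr8:84978749-84978998, minus strand for Junb, chr14:54426659-54426908, plus strand for Mrpl52, chr5:137307675-137307924, minus strand for Srrt, chr11:100041555-100041804, minus strand for Krt34 and chr11:99635085-99635334, minus strand for Krtap4-2.
Rpl13: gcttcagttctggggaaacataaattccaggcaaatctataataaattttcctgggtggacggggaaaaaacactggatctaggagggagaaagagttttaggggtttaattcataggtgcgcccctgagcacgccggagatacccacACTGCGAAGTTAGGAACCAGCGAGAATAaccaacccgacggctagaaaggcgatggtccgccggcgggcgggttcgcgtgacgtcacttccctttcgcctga
Junb: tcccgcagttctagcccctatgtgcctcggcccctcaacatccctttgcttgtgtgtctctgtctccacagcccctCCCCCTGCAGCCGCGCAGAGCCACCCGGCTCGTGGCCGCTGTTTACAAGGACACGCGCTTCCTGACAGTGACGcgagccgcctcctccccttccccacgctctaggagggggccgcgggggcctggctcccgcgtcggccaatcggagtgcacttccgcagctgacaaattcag
Mrpl52: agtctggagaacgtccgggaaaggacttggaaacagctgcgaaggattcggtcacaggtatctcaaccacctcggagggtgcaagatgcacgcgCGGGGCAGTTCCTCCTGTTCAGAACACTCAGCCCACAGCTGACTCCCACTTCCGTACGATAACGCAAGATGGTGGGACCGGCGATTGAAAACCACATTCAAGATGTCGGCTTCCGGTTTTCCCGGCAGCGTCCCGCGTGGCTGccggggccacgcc
Srrt: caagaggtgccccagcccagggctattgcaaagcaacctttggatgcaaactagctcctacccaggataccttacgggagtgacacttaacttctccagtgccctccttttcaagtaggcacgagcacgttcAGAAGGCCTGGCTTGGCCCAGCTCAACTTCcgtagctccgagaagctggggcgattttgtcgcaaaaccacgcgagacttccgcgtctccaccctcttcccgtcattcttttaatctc
Krt34: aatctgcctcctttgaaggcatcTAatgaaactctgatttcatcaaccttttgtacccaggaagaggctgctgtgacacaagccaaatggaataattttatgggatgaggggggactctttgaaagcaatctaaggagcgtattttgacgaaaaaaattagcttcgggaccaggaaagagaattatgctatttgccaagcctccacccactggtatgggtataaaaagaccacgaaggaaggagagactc
Krtap4-2: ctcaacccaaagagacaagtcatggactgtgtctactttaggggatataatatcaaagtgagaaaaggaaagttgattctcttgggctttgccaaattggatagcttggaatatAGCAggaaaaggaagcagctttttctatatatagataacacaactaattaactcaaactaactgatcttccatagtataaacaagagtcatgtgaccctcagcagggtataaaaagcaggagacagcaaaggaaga

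In these 6 stretches the antisense cluster covered 2 bases at Krt34, 4 at Krtap4-2, 28 at Rpl13, 30 at Srrt, 73 at Junb and 143 at Mrpl52. The base of the cluster nearest to the gene lay 13 bases from the annotated start at Mrpl52, 74 at Rpl13, 88 at Srrt, 101 at Junb, 132 at Krtap4-2 and 225 at Krt34. CpG dinucleotides numbered 17 at Rpl13, 20 at Junb, 21 at Mrpl52 and 12 at Srrt, against 4 at Krt34 and 0 at Krtap4-2; the median over all 32817 promoters of the table was 6.0. The sequence TATAAA, the core of a TATA box, was found on the gene's strand with its first base at -31 from the start in Krt34 and at -61 and -29 in Krtap4-2, and on neither strand of the other 4; 12.4% of all promoters held it in the 250 bases, both strands counted. CCAAT, the core of the site of NF-Y, was found on the gene's strand at -36 in Junb and on the other strand at -155 in Krtap4-2 (33.8% of all promoters). GGGCGG, the core of an Sp1 site, began at -37 in Rpl13 (32.7%), and CCGGAAG, the core of an ETS site, was found on the other strand at -47 in Mrpl52 (6.9%). AATAAA, the common hexamer read in polyadenylation, was not found on the antisense strand of these 6 stretches, and 9.49% of all promoters held it on that strand. Each stretch covers at most the first part of the antisense RNA, so its absence here says nothing of a signal further along. A match describes these letters only.

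The working description of the members as antisense starts upstream of gene promoters held for part of them. In 1711 pairs (72.8%) the partner was at most 100 bp away from a start that GENCODE M21 gives for its gene, and 939 of the 2349 members lay inside the span of the partner gene. Both criteria of a promoter-upstream position, a member outside the gene and a partner at an annotated start, were met by 1151 members (49.0%), below called the promoter-upstream pairs. A further 560 lay inside the gene with a partner at an annotated start, 379 inside with the partner elsewhere, and 259 outside with the partner elsewhere. Of all members 101 overlapped an annotated exon on their own strand and 222 an annotated gene on it, and 873 also lay downstream of another named cluster on the opposite strand. The partner gene was protein-coding in 2214 pairs. Copies of Gm10800, Gm10717 and related predicted genes, which are near-identical and can share tags, were the partner in 33 pairs, and 87 pairs had a partner listed under several genes.

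The members sat close to their partners. The edge gap was 84 bp in the median pair, with quartiles of 40 and 172 bp, and 1858 of the 2349 members (79.1%) lay within 200 bp. Unnamed clusters of the same level in the 3 other arrangements numbered 315 upstream on the same strand, 1690 downstream on the opposite strand and 580 downstream on the same strand. They had median gaps of 570, 231 and 584 bp, and 15.9%, 43.6% and 14.1% of them lay within 200 bp. How clusters were formed and named is not stated. Any joining of close starts on the same strand, or sharing of the gene's name, would remove short same-strand gaps. The same-strand gaps are thus no measure for the closeness of the members. In bins of 50 bp the members numbered 725 at gaps under 50 bp and 634 at 50 to 100 bp. The median distance between the centres of a member and its partner was 148 bp, and 161 bp in the promoter-upstream pairs. A cluster can stand in more than 1 arrangement, to different named clusters, so the 4 sets overlap.

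**Figure D1:**
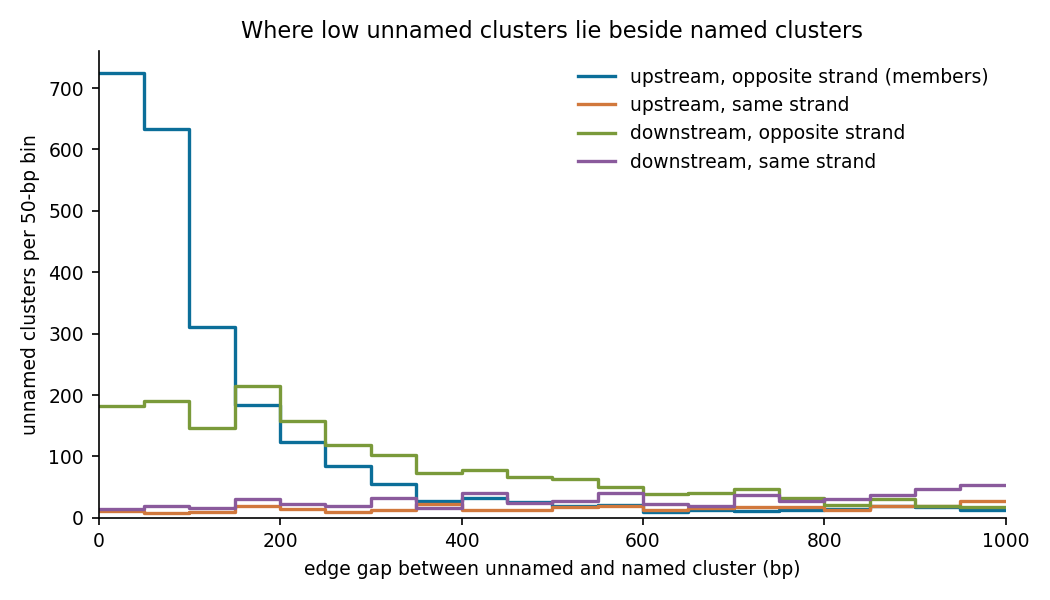
Number of unnamed clusters with a mean above 0 and under 5 CPM (y axis, per bin of 50 bp) by edge gap to the nearest named cluster (x axis, bp), for the members and the 3 other arrangements. The members' line falls from 725 in the first bin, while the downstream opposite-strand line is below it at gaps under 150 bp and above it at 150 to 200 bp (214 against 183). The same-strand lines begin at 11 upstream and 14 downstream and end at 28 and 53.

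Beside the gap, the rule was cut at 1000 bp and at 5 CPM. The members just inside the gap limit were those of Ttc23 at 992 bp and Klf13 at 991 bp, and the unnamed clusters just outside were those near Gm13655 at 1006 bp and Gm30984 at 1007 bp. The members nearest to 5 CPM were those of Clasp1 (4.95 CPM) and Vars (4.92 CPM), and the clusters just above it were those of Myo1c (5.13 CPM) and Zrsr2 (5.38 CPM). In the same arrangement 64 unnamed clusters had 5 CPM or more. The limit cut through a thinning tail, with 32 members of 4 to 5 CPM and 16 clusters of 5 to 6 CPM.

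The members were weak and narrow. Their median level was 0.345 CPM, with quartiles of 0.124 and 0.923 CPM, and the median member held 25 tags over the 4 libraries together. A tag was found in every library for 1802 members (76.7%), at least 3 tags in all for 2270 and fewer for 79. A library with no tag of a member allows up to 0.159 to 0.170 CPM there (3 tags), for counting error only. Members spanned 14 bases in the median, and 625 (26.6%) only 2 or 3 bases, against 74 bases for the partners over pairs. Among the 533 members of at least 1 CPM, 422 were wider than 50 bases. Those nearest to the partner were the strongest, with a median of 0.540 CPM at gaps under 50 bp (725 members), 0.305 CPM at 50 to 100 bp, 0.235 CPM at 100 to 200 bp, 0.288 CPM at 200 to 400 bp and 0.234 CPM beyond. A wider cluster leaves a smaller gap between edges, and the part of width in these medians was not tested.

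Initiation by RNA polymerase II prefers a pyrimidine just before a purine at the first base. For members of 2 bases, where the start can be read from the cluster itself, a promoter sequence was at hand for 173 of 441 (39.2%). In 118 of these 173 (68.2%) the 2 bases were a pyrimidine then a purine, read on the member's own strand, against 21.6% of all adjacent base pairs of the promoter table. In named clusters of 2 bases with at least 10 tags the share was 65.5% on the plus strand and 65.3% on the minus strand; these clusters served to settle how the deposited starts are counted, so their share is no separate finding. The share for members describes those 173 only, since under 80% had a sequence. A comparison of GC content, CpG number and motifs between promoters with and without a member was void for the same reason: a promoter sequence was at hand for 997 of the 1488 genes concerned (67.0%).

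The rule held members under 5 CPM and left out 64 stronger clusters of the same arrangement, so member levels could follow partner levels only within that limit. Within it, Spearman's rank correlation between the mean levels was 0.0384 across all 2349 pairs and 0.0415 across the 1151 promoter-upstream pairs; the points share libraries and depth, and pairs are not independent replicates. Within single libraries it was 0.0296 to 0.0422. Where the partner had under 1 CPM (866 pairs) the median member had 0.346 CPM, and where it had 100 CPM or more (189 pairs) 0.413 CPM. Partners ranged up to 1134 CPM, and with members under the limit the share of the pair followed the partner: the median share was 66.3% in the first of these bins and 0.26% in the second.

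**Figure D2:**
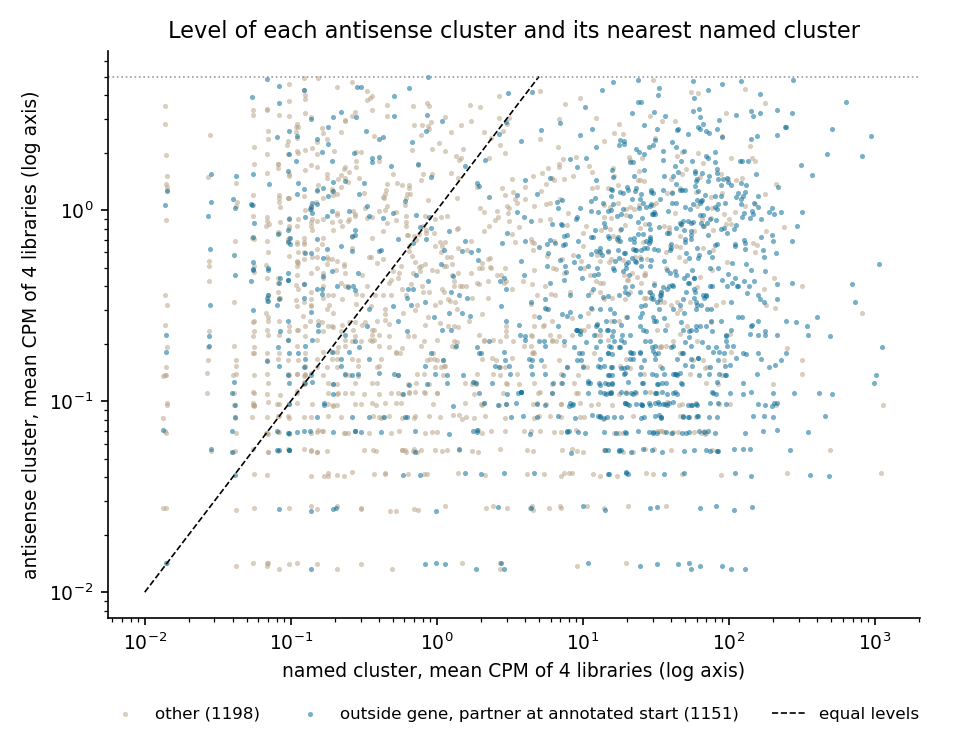
Mean CPM of each antisense cluster (y axis, log scale) against that of its partner (x axis, log scale), 1 point per pair, with the promoter-upstream pairs in blue and the others in tan. The dashed line marks equal levels and the dotted line the 5 CPM limit of the rule, under which the rule keeps every member. Points lie on both sides of the dashed line, and the 571 members above their partner lie to its left.

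Member and partner levels were also summed over pairs, with members limited to 5 CPM by the rule. Member CPM summed to 1671, 1446, 1766 and 1695 in libraries 1 to 4, and partner CPM to 78190, 74570, 78120 and 77370. The antisense share of the tags of a pair was 2.09%, 1.90%, 2.21% and 2.14%, a mean of 2.09% ± 0.132 (SD, n = 4). Library 2 was the lowest and library 3 the highest, further apart than their Wilson 95% intervals for counting error (1.88% to 1.93% and 2.19% to 2.24%). Library 2 also held the most gland secretion RNA, with a marker sum of 31750 CPM against 7.54, 0.226 and 4702 CPM in libraries 1, 3 and 4 (5 markers, all with a tag), and its part in the difference was not tested; with TMM scaling the member sums were 1685, 1553, 1698 and 1628. In the promoter-upstream pairs the share was 1.38% ± 0.103 (SD, n = 4). Members held 0.176% ± 0.0151 (SD, n = 4) of the tags of distinct clusters, and 1.74% ± 0.148 of those of unnamed clusters.

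A member was above its partner in 571 pairs (24.3%). This was so in 46.7% and 45.6% of the pairs whose partner lay away from an annotated start, inside and outside the gene, and in 19.6% and 14.4% of those whose partner lay at one. More than 1 named cluster was in reach of 1303 members, and for 701 the strongest of these was not the nearest. Set against the strongest named cluster in reach, with a median of 21.1 CPM instead of 4.83 CPM, 215 members were higher.

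The strongest members show both situations. Klf4, a transcription factor of the differentiating epidermis, had a member of 5.17, 3.72, 5.16 and 5.18 CPM in libraries 1 to 4, 160 bp upstream of its main start. That start had 250.6, 281.6, 308.2 and 262.1 CPM, 57.3 times as much on the means. The antisense cluster was lowest in library 2, where the gene start was second highest.

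Prkce, protein kinase C epsilon, had a member of 5.50, 4.09, 4.42 and 5.07 CPM and a start of 24.6, 21.9, 24.8 and 24.0 CPM, so that the antisense cluster held 16.7% of the pair. Tmem11, which encodes a mitochondrial membrane protein, had 4.68, 4.83, 4.59 and 5.18 CPM on the antisense side and 31.2, 26.7, 33.5 and 28.4 CPM at the start; its member lay inside the annotated gene. Ankrd50, the gene of an ankyrin repeat protein of endosomal recycling, had 5.56, 5.10, 4.20 and 4.18 CPM against 58.3, 48.5, 57.5 and 64.1 CPM. At these 3 genes the named cluster was the gene's main start, and the levels of the 2 sides did not overlap in any library.

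At Clasp1, which encodes a protein that binds growing microtubule ends, the highest member of all had 5.12, 4.73, 5.62 and 4.35 CPM, and its nearest named cluster 0.605, 1.12, 0.908 and 0.836 CPM. Clasp1 had 3 named clusters in reach and this was not its strongest. The largest ratios of member to partner belonged to pairs whose partner was a stray cluster of 1 tag in all: Socs5, a suppressor of cytokine signalling, with a member of 3.63, 2.82, 4.14 and 3.46 CPM, Duoxa1, the maturation factor of the oxidase DUOX1, with 1.71, 2.07, 2.55 and 1.45 CPM, and Tfap2a, the transcription factor AP-2 alpha of epidermis, with 1.32, 1.28, 1.53 and 1.17 CPM. With the partner under the floor of 3 tags, no fold is given. The members at Duoxa1 and Tfap2a lay inside the annotated partner gene, and that at Tfap2a also overlapped an annotated gene on its own strand.

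At the other end stood the strongest partners. Hspa8, the constitutive HSC70 chaperone, had a start of 904.2, 859.0, 1009 and 971.9 CPM and a member 312 bp upstream of 2.42, 2.23, 2.89 and 2.23 CPM. Rps6, a protein of the small ribosomal subunit, had 809.3, 754.4, 847.2 and 864.2 CPM and a member 3 bp away of 1.93, 1.49, 2.38 and 1.84 CPM. In both pairs library 3 held the highest antisense level, as 1 of the 2 libraries with the highest sense level.

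Rpl13, of the large ribosomal subunit, had 1042, 1038, 1039 and 1149 CPM against 0.495, 0.584, 0.624 and 0.390 CPM, or 9, 11, 11 and 7 tags, on the antisense side; its start is also listed under Snord68, the small nucleolar RNA in an intron of the gene. Mrpl52 had 156.2, 166.3, 160.0 and 167.6 CPM against 3.52, 3.08, 3.57 and 2.73 CPM, with clusters 6 bp apart. The named start was weaker at Mrpl52 than at Rpl13, and the antisense cluster stronger, with no overlap between the libraries in either. At Fth1, ferritin heavy chain, with a partner of 1097 CPM ± 129 (SD, n = 4), the antisense cluster lay inside the annotated gene and held only 0, 0, 2 and 1 tags.

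**Figure D3:**
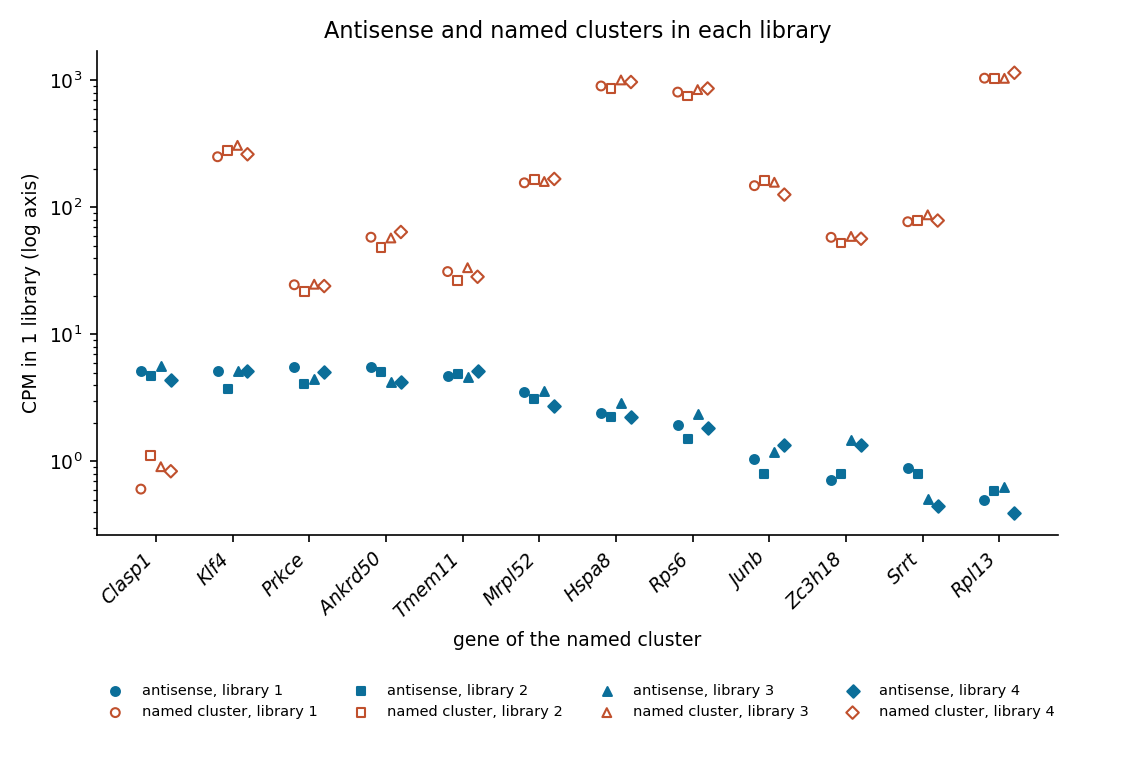
CPM in each library (y axis, log scale) of the antisense cluster (filled) and of the named cluster (open) for 12 genes (x axis), 1 marker shape per library. Filled markers lie between 0.390 and 5.62 CPM, open ones between 0.605 and 1149 CPM, and at Clasp1 alone among the 12 is the antisense cluster above the named one.

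Among the strongest clusters of genes, the share with a member was larger at higher levels. Here a member counts for every named cluster within 1000 bp in that arrangement, not only for its partner. By nearest pairing, the partner was the strongest cluster of its gene in 1182 pairs. Taking the strongest cluster of each of 17087 genes, 1488 (8.71%) had a member: 1.77% of those under 1 CPM, 2.78% at 1 to 5 CPM, 7.8% at 5 to 20 CPM, 12.6% at 20 to 100 CPM and 278 of 1544 at 100 to 1000 CPM. Of the 61 starts of 1000 CPM or more 9 had one (14.8%). Low unnamed clusters downstream on the opposite strand went the same way, from 1.52% to 9.07% over the first 5 levels. Over all named clusters, minor ones included, the share with a low unnamed cluster in the upstream opposite position did not rise throughout. It was 12.5% under 1 CPM, 9.57% at 1 to 5 CPM and 9.4% at 5 to 20 CPM. Above that it was 12.9% at 20 to 100 CPM, 17.9% at 100 to 1000 CPM and 16.1% at 1000 CPM or more. A named cluster stood in the upstream opposite position in 16.4% of genes, at 15.0% of those under 1 CPM and 17.0% of those at 100 to 1000 CPM. Among genes of 20 to 100 CPM, a member was found at 5 of 74 starts of 2 to 10 bases (6.76%), 9.59% of those of 11 to 50 bases, 13.2% of those of 51 to 100 bases and 12.7% of wider ones. These shares are descriptions, and depth limits how many weak antisense clusters can be seen.

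**Figure D4:**
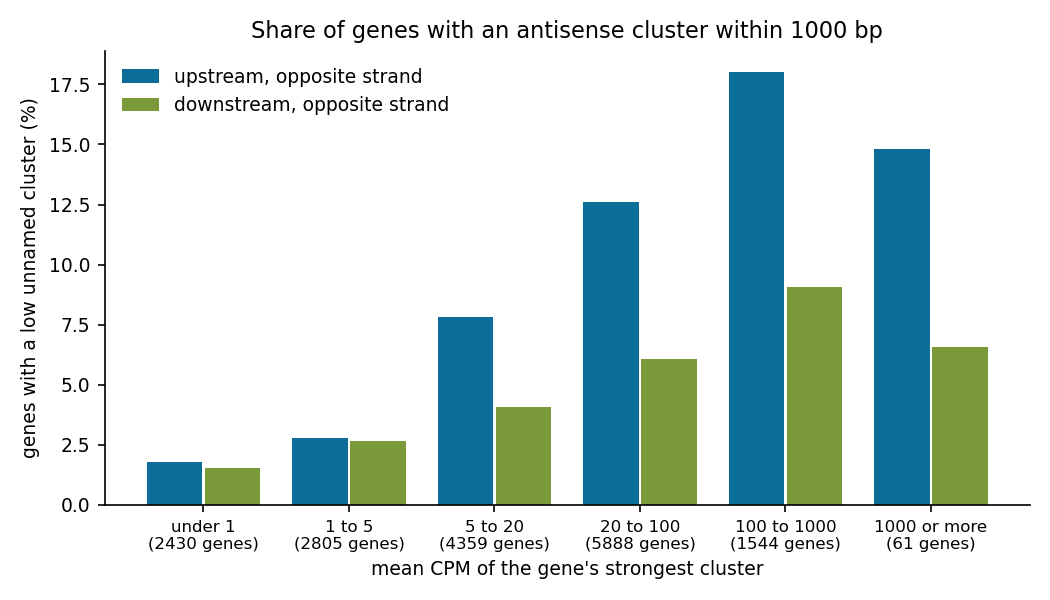
Share of genes (y axis, percent) whose strongest cluster had a low unnamed cluster within 1000 bp on the opposite strand, upstream (the members, blue) or downstream (green), by level of the gene's strongest cluster in mean CPM (x axis, with the number of genes). The upstream share goes from 1.77% under 1 CPM to 12.6% at 20 to 100 CPM, is higher still at 100 to 1000 CPM and is 14.8% in the last, which holds 61 genes.

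Genes whose products make, bind or destroy such RNAs had members of their own in 11 of 78 cases. For any named cluster of a gene, 1922 of 17787 genes (10.8%) had a member, and 12.2% of genes of 10 to 50 CPM and 19.7% of those of 50 to 200 CPM; list counts stand beside these shares as descriptions. None of 12 nuclear exosome genes had one, at gene levels of 21.5 to 88.2 CPM. Of 9 genes of the exosome adaptors 3 had one (Zcchc7, Zc3h3 and Tent4a), of 10 U1 snRNP genes 1 (Snrpg), of 14 Integrator genes 1 (Ints6), of 14 cleavage and polyadenylation genes 2 and of 15 pausing and elongation genes 2 (Nelfa and Hexim1).

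Of 4 cap-binding and ARS2 genes 2 had a member. Srrt itself had 0.880, 0.797, 0.510 and 0.446 CPM on the antisense side, or 16, 15, 9 and 8 tags, against 77.1, 78.4, 87.5 and 78.8 CPM at its start. Zc3h18, a protein that links the cap-binding complex to the exosome, had 0.715, 0.797, 1.48 and 1.34 CPM against 58.1, 52.5, 59.1 and 56.7 CPM. The antisense clusters of these 2 genes were ordered oppositely over the libraries, higher in libraries 1 and 2 at Srrt and in libraries 3 and 4 at Zc3h18, and neither passed the test of spread given below (adjusted p = 0.996 for both, limma). Ints6, a subunit of the Integrator complex that ends short transcripts, had a member of 1.98, 1.22, 3.29 and 2.79 CPM, 253 bp from a start of 28.2, 29.2, 31.7 and 34.7 CPM. The member at Ints6 overlapped an annotated gene on its own strand. Nelfa, of the complex that holds paused polymerase, had 1.93, 2.02, 1.99 and 1.78 CPM against 40.6, 40.5, 45.4 and 49.4 CPM. The member at Nelfa lay inside the annotated gene.

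Genes of the keratinocyte and of signalling through NF-kB held members too. Markers of the tissue were present: 6 of 6 keratinocyte markers had tags, with sums of 7252, 6188, 9624 and 9132 CPM, and muscle, fibroblast and hair shaft markers were found too, so that a level in this bulk tissue can reflect fewer cells of a type or less RNA per cell, which cannot be told apart. Of 24 epidermal transcription factor genes 9 had a member, 6 of them promoter-upstream; of 17 basal and suprabasal keratinocyte genes 7, 2 of them promoter-upstream (11.8%, against 13.6% of all genes of 200 CPM or more). Krt14, the basal keratin, had members inside the gene: those of 1.98, 2.44, 4.42 and 2.40 CPM and of 4.68, 4.68, 1.48 and 2.51 CPM had named clusters 601 and 635 bp from an annotated start; these held 1 and 5 tags in all. Itgb4, the hemidesmosome integrin, had a member of 0.880, 1.22, 1.19 and 0.613 CPM inside the annotated gene, 26 bp from its main start of 109.5 CPM ± 23.0 (SD, n = 4).

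Of 20 immediate early genes 7 had a member, 3 promoter-upstream, and of 20 genes of the IKK and NF-kB pathway 6, 1 of them promoter-upstream. The median gene levels of these lists were 48.6 and 33.8 CPM. Single genes of the lists reached 440 and 114 CPM. Among all genes of 10 to 50 CPM, 12.2% had a member and 7.06% a promoter-upstream one. At 50 to 200 CPM these shares were 19.7% and 10.9%. Junb had 1.05, 0.797, 1.19 and 1.34 CPM on the antisense side against 148.3, 163.5, 157.8 and 126.1 CPM, the antisense cluster being highest where the gene start was lowest and lowest where it was highest. Egr2, another immediate early factor, had 0.715, 0.956, 1.13 and 0.557 CPM against 46.9, 45.5, 48.3 and 47.1 CPM, with its member inside the annotated gene. Tnfaip3, the A20 inhibitor of NF-kB, had 0.550, 0.425, 0.908 and 0.557 CPM against 12.4, 12.9, 14.4 and 11.9 CPM, both highest in library 3, and its member lay inside the annotated gene.

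Cytosolic ribosomal protein genes had a member in 23 of 81 cases (28.4%), 19 of them promoter-upstream (23.5%). Among all genes of 200 CPM or more these shares were 24.3% and 13.6%. Mitochondrial ribosomal protein genes had one in 10 of 81, zinc finger genes named Zfp in 51 of 357, solute carrier genes in 30 of 273 and proteasome genes in 4 of 39. Of 28 chromatin regulator genes 7 had one, and of 27 genes of DNA repair and replication 4. None was found at 16 matrix genes, at 15 skeletal muscle genes or at 6 genes of gland secretion. The median gene levels of these short lists were 94.5, 353 and 2120 CPM. Among all genes, 19.7% of those of 50 to 200 CPM and 24.3% of those of 200 CPM or more had a member. Hair shaft and follicle genes had one in 3 of 13 cases (Krt34, Hoxc13 and Msx2). Levels differ between these lists, and no test of a list was made.

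The test of spread asked whether a cluster differed between the 4 libraries more than clusters of its level do (limma, log2(CPM + 0.5), one-sided, Benjamini-Hochberg adjusted). Of 31791 clusters tested 216 passed, 0.679%, and 229 by edgeR on whole tags, 0.72%. Of the members 947 reached the minimum of 0.5 CPM and were tested, and 0 passed, by limma or by edgeR on whole tags; 10 had an unadjusted p under 0.05 (1.06%, against 6.7% of all clusters tested). Near the minimum of 0.5 CPM, as at Rpl13 with 9, 11, 11 and 7 tags, only large differences can pass. The strongest member tested, at Clasp1, held 93, 89, 99 and 78 tags. Members under the minimum were not tested. The smallest adjusted p of a member was 0.117, for the cluster 919 bp from Gm15446, with 6.99, 6.06, 1.25 and 1.17 CPM; it lies in an annotated exon on its own strand, and the named start of Gm15446 did not follow it, with 9.79, 8.34, 9.19 and 10.8 CPM.

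Of the partners 1470 were tested and 12 passed (0.816%), and the same 12 passed by edgeR with the same kind of prior. Of all named clusters tested 0.677% passed by limma, so the share among partners was near that of named clusters. An unadjusted p under 0.05 (limma) was found for 5.51% of partners and 6.39% of named clusters. With the reduced prior degrees of freedom that limma gives outlying clusters 0 passed, and 8 passed when only clusters of at least 1 CPM were tested. All 12 were high in libraries 1 and 2 and low in libraries 3 and 4, and they belonged to Krtap19-5, Krtap21-1, Krtap4-2, Krtap4-7, Krtap10-10, Krt34, Pla2g2e and the predicted genes Gm11565, Gm9736, Gm11563, Gm45337 and Gm45618. Krt34 is a keratin of the hair shaft and Krtap genes encode the keratin-associated proteins that bind such keratins together; Pla2g2e is a secreted phospholipase of hair follicles. Hair shaft markers had sums of 3349, 3183, 905.4 and 420.7 CPM (3 of 4 markers with a tag). Krt34 is itself among these markers, so their sum partly repeats the calls. The wider list of hair shaft and follicle genes, which also holds Krt34, summed to 11390, 10530, 4854 and 6285 CPM. The part of hair shaft RNA in these 12 calls was not tested. When library 4 was left out, 3 of the 12 still passed. Tags of near-identical Krtap genes may have been placed at the wrong copy, which makes their levels uncertain.

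The antisense clusters of these 12 pairs were weak and leaned the same way. Those at Gm9736 and Gm45618 overlapped an annotated gene on their own strand, and that at Pla2g2e lay inside the annotated partner gene. At Krtap21-1 the named start had 340.7, 323.8, 77.9 and 46.0 CPM (adjusted p = 0.00338, limma), and the antisense cluster 887 bp away had 33, 25, 11 and 6 tags. At Krtap4-2 the start had 194.8, 199.7, 62.2 and 57.7 CPM (adjusted p = 0.0114, limma), and the antisense cluster shown above had 18, 17, 8 and 6 tags. At both genes each of libraries 1 and 2 stood above each of libraries 3 and 4 on both strands.

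At Krtap10-10 the start had 142.8, 149.5, 58.9 and 39.7 CPM (adjusted p = 0.0139, limma), and the antisense cluster 15, 13, 4 and 2 tags. At Krt34 the start had 420.2, 392.4, 107.8 and 58.03 CPM (adjusted p = 0.00359, limma), and the antisense cluster only 5, 3, 4 and 1 tags. The groups of libraries did not overlap on the antisense strand of Krtap10-10, but did at Krt34, where library 3 held more tags than library 2.

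Summed over the 12 pairs the antisense clusters held 120, 92, 36 and 29 tags. Their CPM in libraries 1 and 2 together exceeded that in libraries 3 and 4 in 12 of 12 pairs, against 871 of the 2337 other pairs (37.3%), and both of libraries 1 and 2 stood above both of libraries 3 and 4 in 10 of 12, against 9.71% of other pairs. This was looked at after the values were seen and is a description. The antisense share of these pairs was 0.276%, 0.207%, 0.331% and 0.430%, and these pairs were picked for the spread of their gene side. Member CPM summed to 6.60, 4.89, 2.04 and 1.62, partner CPM to 2381, 2351, 614.7 and 374.3. Hoxc13, a transcription factor of the hair follicle whose start had 184.6, 174.2, 113.3 and 146.3 CPM (adjusted p = 0.298, limma), had an antisense cluster of 3.80, 2.66, 1.36 and 2.01 CPM (adjusted p = 0.772, limma), with the libraries in the same order on both strands.

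**Figure D5:**
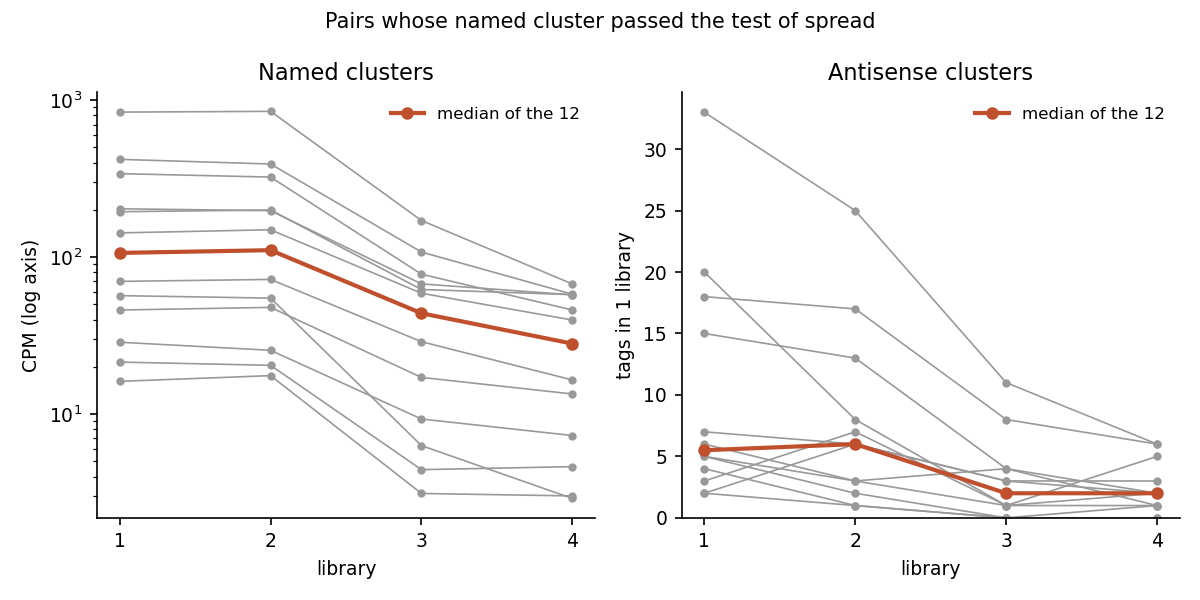
The 12 pairs whose named cluster passed the test of spread: CPM of the named cluster (left, log scale) and tags of the antisense cluster (right, linear scale from 0) in each library (x axis). Each thin line joins the values of 1 pair and the thick line their median; libraries have no order. The median antisense cluster held 5.5, 6.0, 2.0 and 2.0 tags.

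Other partners that varied between libraries were set against their members in the same way. Among pairs with a partner of at least 1 CPM whose highest library was at least 2 times its lowest, the member was higher in the partner's highest library than in its lowest in 61 of 76 pairs (80.3%). Summed, these members had 42.8 against 25.9 CPM, 1.65-fold. Without the 12 pairs this was 49 of 64 (76.6%, 1.49-fold), and 46 of 66 (69.7%, 1.48-fold) when both sides were also TMM-scaled. At a range of at least 1.5 times, the 12 included, it was 195 of 291 pairs (67.0%, 1.28-fold). At a range of at least 3 times it was 24 of 25 pairs, and 22 of 26 with TMM scaling. Without the 12 it was 12 of 13 (1.82-fold), and 10 of 14 (71.4%, 1.43-fold) with TMM scaling. Among the 947 pairs with a member of at least 0.5 CPM the 2 sides had the same highest library in 291 (30.7%), where the product of the shares gives 27.9%. With TMM scaling it was 259, and no product of shares is given for that scale. These measures were chosen after values were seen, both sides share libraries and depth, and no test was made.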

How the data were processed

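CAGE libraries were prepared with a purchased kit from column-purified total RNA, per the labels' protocols. The submitters' processing notes name BWA and HISAT2, without versions, and the mm9 build; how clusters were formed is not stated in them. The deposited coordinates fit GRCm38 (GENCODE M21), not mm9. Starts are printed 1-based, the deposited start being read as 0-based because clusters of 2 bases then begin with a pyrimidine and a purine.

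In the CPM the authors deposited, 100% of values were whole multiples of what 1 tag is worth, within 0.02 tags, and the tags were recovered: 18179860, 18823630, 17630119 and 17939565 in libraries 1 to 4, 1 tag being worth 0.0550, 0.0531, 0.0567 and 0.0557 CPM. A cluster listed under several genes enters these totals several times. Clusters without a gene name held 9.67% to 11.0% of tags. Intervals and floors cover counting error only.

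Members and lists were chosen with earlier results of these data known. Pairs are named by a rule: the 8 strongest members, the 8 strongest partners, the 6 largest ratios, the 8 smallest p of members and of partners, those nearest the limits, and the 3 strongest partners of a list; of these, those shown were chosen after their values were seen.

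The test of spread used limma 3.58.1 on all clusters of at least 0.5 CPM: TMM scaling (factors 0.9915, 0.9309, 1.04 and 1.041), a robust, level-dependent prior (5.233 degrees of freedom), and an upper F test of the variance over libraries. The first version used the smaller prior degrees of freedom that limma gives outlying clusters; it could call nothing (smallest unadjusted p 0.0634) and recovered no change in simulated data, so those of the whole fit were used instead, a choice made after that outcome. Tested on simulated data, the final version recovered nearly all of the large changes and few of the moderate ones, but a sizeable part of its calls were unchanged clusters of high assumed variability, above the nominal rate, so an adjusted p under 0.05 is not a firm call. An alternative was edgeR 4.0.16 on whole tags, with its own prior and again the prior degrees of freedom of the whole fit. DESeq2 1.42.0 size factors were another. The test takes the libraries as independent, which those with related sample codes may not be. Promoter sequences are RefSeq's (GRCm38.p6).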

Additional observations from a re-analysis of the deposited data

Results flagged for a closer look

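Among 93 sets of 4 library values, taken from the pairs and sums considered, 8 had 1 library whose distance to the nearest other exceeded Dixon's 95% limit for 4 values, set on its part of the whole range; chance alone flags about 1 set in 20. The antisense cluster of Klf4 was low in library 2 at 3.719 CPM, against 5.162 to 5.184 CPM in the others. The start of Rpl13 was high in library 4 at 1149 CPM, against 1038 to 1042 CPM, and that of Srrt was high in library 3 at 87.46 CPM, against 77.12 to 78.82 CPM. The other sets are the named clusters of 1 tag in all, which cannot but stand apart: 0.055 CPM for those of Socs5 and Krt14, 0.056 CPM for that of Duoxa1, and 0.057 CPM for those of Ssu72 and Tfap2a.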

How the results depend on the processing

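No paired analysis was possible because all libraries belong to 1 group. The number of members, 2349, stayed within 1.5 times under the 12 alternatives of gap, level, tags, partners, exons and left-out libraries (2326 to 2335 with a library left out) and without predicted-gene copies; the stricter promoter-upstream definition, added after seeing the data, gave 1151. The antisense share of pair tags was 2.046% to 2.149% with a library left out, 1.156% against the strongest named cluster in reach, 2.261% with each partner counted once, 2.398% with members up to 10 CPM, 1.382% in promoter-upstream pairs and 5.075% as the median share per pair. Members that passed the test of spread numbered 0 throughout, leaving out each library included, except 5 with no filter on level. Partners that passed numbered 12, but 44 with no filter, 0 with limma's reduced prior degrees of freedom, and 3 to 12 with a library left out; without library 4 it was 3, without library 2 it was 8 and without library 1 it was 9. Pairs with the same highest library numbered 291 of 947, 169 of 533 at members of at least 1 CPM, 693 of 2348 over all members, 139 of 469 in promoter-upstream pairs and 259 of 947 with TMM scaling. With a library left out they numbered 339 to 384. With fewer libraries to choose from the same highest is more likely without any link, so these runs cannot be set beside 291. Antisense clusters of called partners leaned towards libraries 1 and 2 in all pairs under each alternative run, 12 of 12 with TMM scaling and 9 of 9 with at least 10 tags. Depth limits the weakest members: 79 held fewer than 3 tags in all.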

Other observations

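Some members not described above varied between libraries without passing the test of spread. Of the 8 members with the smallest p, 7 were higher in libraries 1 and 2 than in libraries 3 and 4; the exception was a member at Gm10800, 1 of the near-identical predicted genes, with 0.495, 0.744, 3.01 and 1.51 CPM (adjusted p = 0.528, limma). Mettl6, an RNA methyltransferase gene, had an antisense cluster of 1.27, 1.06, 0.284 and 0.056 CPM (adjusted p = 0.533, limma), overlapping an annotated gene on its own strand. At Znrf1, which encodes a ubiquitin ligase, it was 1.27, 1.38, 0.284 and 0.279 CPM (adjusted p = 0.611, limma), beside a named cluster of 1.71, 1.54, 1.53 and 0.780 CPM. That antisense cluster lay inside the annotated gene. At Gm14321, a predicted gene, it was 2.26, 2.55, 0.908 and 1.06 CPM (adjusted p = 0.710, limma), while the named cluster had 1.16, 1.38, 1.48 and 2.17 CPM. The named cluster of Gm14321 thus ran against its antisense cluster, while at Znrf1 both were lower in libraries 3 and 4.

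A few members stood at genes of chromatin, DNA copying and glucose uptake. Ezh2, the methyltransferase of the Polycomb complex, had 2.09, 1.01, 1.70 and 1.73 CPM against 54.7, 42.8, 50.8 and 55.2 CPM at its start, both sides lowest in library 2; its member lay inside the annotated gene. Mcm5, of the replicative helicase, had 0.825, 0.584, 1.25 and 0.836 CPM against 53.7, 43.9, 60.3 and 51.8 CPM, with library 3 highest and library 2 lowest on both strands. Slc2a1, the glucose transporter GLUT1, had 1.16, 0.797, 2.10 and 1.84 CPM, 717 bp from a start of 72.8, 85.7, 133.1 and 97.4 CPM, both highest in library 3. None of these 3 antisense clusters passed the test of spread (adjusted p of 0.996 each, limma).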
